A study of Rattus norvegicus with 88 samples.

Results

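Cortex of untreated rats with high and with low levels of 4 immediate early genes was compared among 79 heterogeneous stock (HS) rats, of the 80 with a column in the deposited table and the 88 samples in the labels. Fos, Egr1, Arc and Junb were standardized within each rat batch, and the mean of the 4 standardized values was the score of a rat. Rats above the median score of their batch made up the high group (39 rats), and the others the low group (40 rats). Rat batch is a number that the labels gave to each animal. Batch 2 held 7 high and 8 low rats, batch 3 held 11 and 11, batch 4 held 13 and 13, and batch 6 held 8 and 8. The labels marked 8 samples as removed, and the 1 rat of batch 5 was in no group.

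Polyadenylated RNA came from orbitofrontal cortex that was dissected from frozen brain sections, with tissue of both hemispheres joined for each rat. All rats were of the same outbred HS population, which descends from inbred founder strains, lived in group housing and had had no drug or behavioral treatment. High and low are therefore not treatments: the grouping was made from the expression of these same libraries. A gene that differed between the groups is one whose level went with the score, and no direction of effect can be read from it. The deposited table names genes by Ensembl identifiers that could not be paired with gene names here, so the dissection was not checked against markers of cortical neurons, glia or neighbouring regions. In bulk tissue a lower level can come from fewer cells of a type or from less RNA per cell, and these cannot be told apart.

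Immediate early genes are transcribed within minutes of strong synaptic input and need no newly made protein for their induction. Fos and Junb encode subunits of the AP-1 transcription factor, Egr1 encodes a zinc finger transcription factor, and Arc encodes a protein that acts at dendrites and synapses. The regulatory regions of such genes commonly carry sites for serum response factor (the CArG box) and for CREB (the cAMP response element), through which calcium signals reach the genes. In rodent cortex their RNA is widely used as a mark of recent neuronal activity.

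RefSeq promoters of assembly GRCr8 were matched for 2 of the 4 genes, and they are shown as a description of these 2 genes alone. Each runs from 250 bases before the start of the gene to 50 bases after it, on the plus strand. Capitals mark the CArG box, the core of the cAMP response element (TGACG, or CGTCA on the other strand) and the TATA box letters TATAAA. The Egr1 promoter lies at chr18:26736828-26737127 and that of Junb at chr19:40080876-40081175.
Egr1: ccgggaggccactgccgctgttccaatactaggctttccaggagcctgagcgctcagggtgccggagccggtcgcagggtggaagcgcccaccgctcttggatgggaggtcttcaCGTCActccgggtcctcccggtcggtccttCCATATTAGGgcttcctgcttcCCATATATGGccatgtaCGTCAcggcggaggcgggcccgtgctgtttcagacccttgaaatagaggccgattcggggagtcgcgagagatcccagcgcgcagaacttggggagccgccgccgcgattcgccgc
Junb: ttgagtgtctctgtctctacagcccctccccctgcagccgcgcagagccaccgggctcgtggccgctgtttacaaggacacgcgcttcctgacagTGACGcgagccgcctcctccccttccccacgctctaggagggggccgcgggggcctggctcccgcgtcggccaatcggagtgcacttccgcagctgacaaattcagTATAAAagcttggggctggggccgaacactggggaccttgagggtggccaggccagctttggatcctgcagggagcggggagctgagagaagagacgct
Egr1 held 2 CArG boxes, CCATATTAGG at position -105 and CCATATATGG at position -83, where -1 is the base just before the start. It also held CGTCA at -135 and at -66. Junb held TGACG at -155 and TATAAA at -49, and no CArG box. The letters TGACGTCA, TGACTCA and GCGGGGGCG were also searched for and were in neither promoter. Searched on both strands in 33469 rat promoters of the same length, a CArG box was in 1.64% and at least 2 of them in 0.0209%, which is 7 promoters. TGACG or its complement was in 21.2%, TATAAA in 14.2%, and a CArG box together with TGACG in 0.272%. The GC content was 64.7% for Egr1 and 65.3% for Junb, against a median of 51.7% over all promoters. A match of letters is a description of the sequence and was not linked to any measurement of binding.

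Fos, which chose the groups with the other 3 genes and is therefore described without a test, had normalized counts between 56 and 3116 over the 79 rats. In batch 2 the lowest, median and highest counts were 1688, 1878 and 2790 in the high group and 768, 909 and 1342 in the low group. In batch 3 they were 1489, 1936 and 3116 against 183, 1113 and 1470. The groups did not overlap in these 2 batches. In batch 4 they were 1550, 2130 and 2800 against 721, 1207 and 1766, and in batch 6 they were 1122, 2184.5 and 2774 against 56, 645 and 1285. There 2 low rats of each batch reached the lowest high rat. Over all rats the mean was 10.99 ± 0.317 on the log2(normalized count + 1) scale in the high group (SD, n = 39) and 9.71 ± 0.914 in the low group (SD, n = 40), a 2.43-fold ratio.

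Junb, the partner of Fos in AP-1, had counts of 3564, 4786 and 6416 (lowest, median, highest) in the high group of batch 2 and of 1968, 2253.5 and 2553 in the low group. In batch 6 the high rats had 3148, 3846.5 and 5400 and the low rats 409, 1514 and 2977, and in neither of these batches did the groups overlap. In batch 3 the counts were 3310, 4492 and 6786 against 520, 2301 and 3923. In batch 4 they were 3113, 4465 and 5924 against 1257, 2324 and 4245. In both, 3 low rats were at or above the lowest high rat. The difference of the log2 means, raised back to a ratio, was 2.15-fold over all rats, from 1.78-fold in batch 4 to 2.68-fold in batch 6.

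Arc had counts of 11513, 14099 and 18496 in the high group of batch 2 and 4948, 7595 and 10310 in the low group, with no overlap. In batch 3 the high rats had 7701, 15802 and 20153, and the low rats had a median of 6485 and reached 15611. In batch 4 the values were 11458, 14151 and 17853 against 4875, 8876 and 12579, and in batch 6 they were 6926, 14803.5 and 19376 against 333, 3741.5 and 7410. Outside batch 2 between 1 and 3 low rats per batch reached the lowest high rat. High and low are relative to the batch, and with the batches joined the groups overlapped more. Of the 40 low rats, 22 were then at or above the lowest high rat for Arc. For Egr1 this held for 30, for Fos for 15 and for Junb for 7. The difference of means was widest in batch 6, at 2.10 on the log2 scale, and narrowest in batch 4, at 0.69.

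Egr1 had the smallest ratio between the groups of the 4 genes. Its counts in batch 2 were 13068, 15661 and 17173 in the high group and 8254, 9930 and 13015 in the low group, and in batch 3 they were 11660, 13322 and 19258 against 3933, 8454 and 10767, with no overlap in either batch. In batch 4 they were 9394, 12891 and 16519 against 7485, 10306 and 13284, and 10 of the 13 low rats were at or above the lowest high rat. In batch 6 they were 7231, 11674 and 13807 against 2107, 6398 and 10845. The difference of the log2 means, raised back to a ratio, was 1.57-fold over all rats and 1.23-fold in batch 4. These counts are not per length and were not compared between genes as levels.

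**Figure D1:**
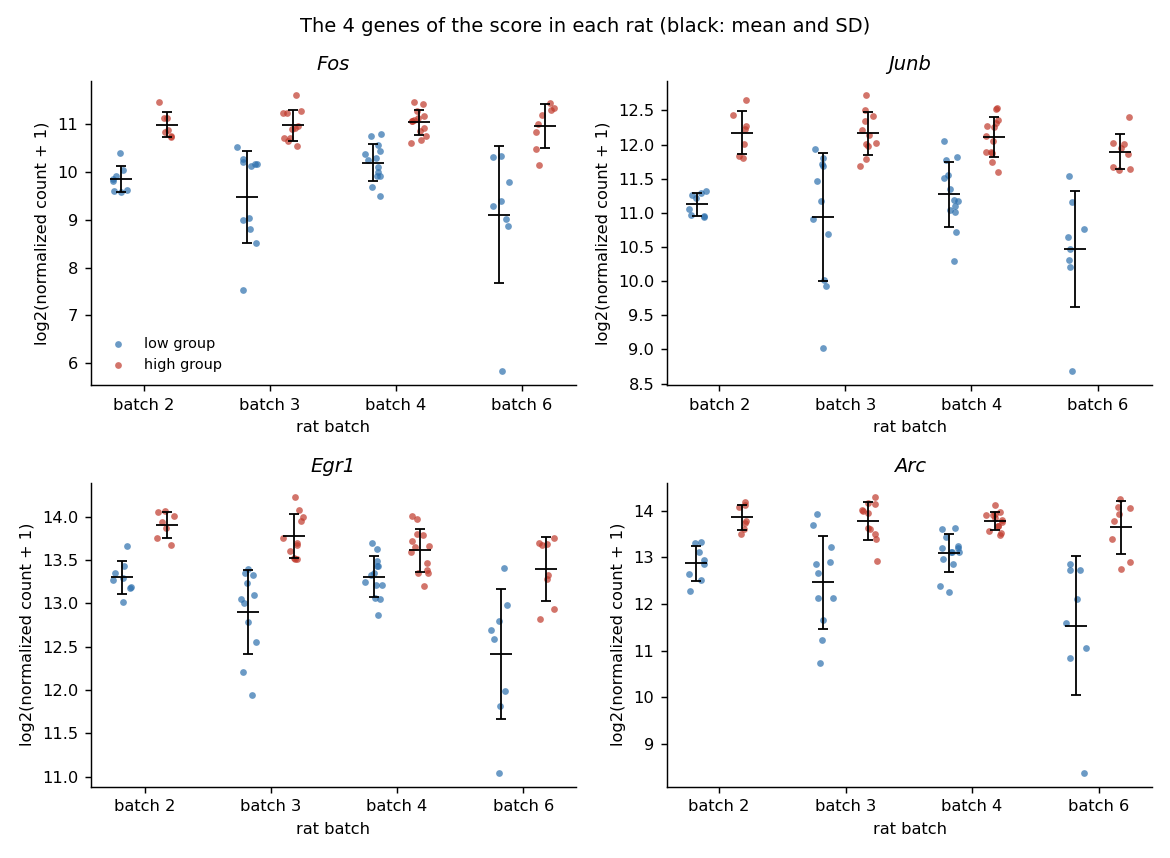
Log2(normalized count + 1) of Fos, Junb, Egr1 and Arc (vertical axes) in each of 79 rats by rat batch, with the high group in red and the low group in blue and with the mean and SD in black. The groups were chosen by these values, the low group is the wider one in batches 3, 4 and 6 for Fos, Junb and Arc, and the lowest points belong to a low rat of batch 6.

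The spread of these genes among untreated rats was wide. Within batches the SD on the log2 scale was 0.947 for Arc, 0.931 for Fos, 0.774 for Junb and 0.513 for Egr1. Among the 14805 genes whose mean log2 level reached 3, a larger SD than that of Arc was found for 2.32%, than that of Fos for 2.44%, of Junb for 4.34% and of Egr1 for 12.6%. The scores reached further on the low side in batches 3, 4 and 6, and further on the high side in batch 2. Scores spanned -1.32 to 1.53 among the rats of batch 2 and -2.53 to 1.01 among those of batch 3. They spanned -2.27 to 1.23 for batch 4 and -2.70 to 1.04 for batch 6. The lowest rat, a male of batch 6, had counts of 56 for Fos, 333 for Arc, 409 for Junb and 2107 for Egr1 at a depth of 18.2 M reads (M is the prefix mega). The next, a female of batch 3, had 183 for Fos, 520 for Junb and 3933 for Egr1 at 22.4 M, and its Arc was 10.74 on the log2 scale. Both libraries were at or above the mean depth of the series.

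The 4 genes varied together. With batch means removed, Pearson's r over the 79 rats was 0.936 for Fos and Junb, 0.920 for Fos and Arc, 0.889 for Fos and Egr1, 0.880 for Arc and Junb, 0.866 for Egr1 and Arc and 0.807 for Egr1 and Junb. Within the low group r ran from 0.724 to 0.885 and within the high group from 0.348 to 0.788, with Egr1 and Junb lowest in both. Values of one rat share a library, its scaling and its depth, and these coefficients are given as a description. Scores lay close together on either side of the threshold in batches 3, 4 and 6, and batch 2 had a gap there. The lowest high and the highest low rat of batch 2 scored 0.402 and -0.0693, those of batch 3 scored 0.341 and 0.274, those of batch 4 scored 0.102 and 0.0802, and those of batch 6 scored 0.195 and 0.144.

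The high group held 24 of 38 females (63.2%) and 15 of 41 males (36.6%), and males made up 38.5% of the high and 65.0% of the low group. With group labels permuted within batch the two-sided p was 0.02525, and 0.101 after Benjamini-Hochberg adjustment over the 4 measures tested in this way, so the difference did not pass the correction. In batch 3 the high group held 9 of 12 females and 2 of 10 males, and in batch 4 it held 9 of 14 females and 4 of 12 males. Batch 2 had 2 of 4 females and 5 of 11 males in it, and batch 6 had 4 of 8 of each sex. The high minus low difference in the percentage of males was -26.5 points, and -15.6 points without batch 3 (p = 0.2927). The score without Fos, Egr1 or Arc in turn gave p-values from 0.07404 to 0.07548, and the score without Junb gave -31.6 points (p = 0.00672). Without batch 6 the difference was -33.3 points (p = 0.01188). Sex was taken from the labels of each sample, whose totals of males and females are not the same as those in the methods of the study.

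The genes themselves were tested against sex in the model of the whole table, with batch as a covariate. On the log2 scale the 41 males had an Egr1 level of 13.20 ± 0.563 (SD) and the 38 females one of 13.49 ± 0.514 (SD), a difference of -0.34 (SE 0.11) with a limma adjusted p of 0.31483. Fos differed by -0.43 (SE 0.20), Arc by -0.44 (SE 0.21) and Junb by -0.28 (SE 0.17), with limma adjusted p-values of 0.6518, 0.6481 and 0.7947. All 4 estimates were lower in males, and none passed the threshold over all genes.

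Sequencing measures were close between the groups. Depth as recovered from the values was 11.1 to 25.3 M reads in the high group, with a median of 18.0 M, and 5.67 to 25.6 M in the low group, with a median of 18.1 M. Log2 depth differed by 0.080 (permutation within batch, two-sided p = 0.2929, adjusted p = 0.3905). The number of genes at 0 had a mean of 547 in high and 540 in low libraries (p = 0.8665). The 10 highest genes of a library took 9.91% of its counts in the high and 10.5% in the low group (p = 0.09443, adjusted p = 0.1889). The names of the columns restarted in order at the beginning of 3 stretches of the table, whose meaning the labels do not give. Batches 4 and 6 lay in the third stretch. In batch 2 the first stretch held 7 high and 7 low rats and the second 1 low rat, and in batch 3 the stretches held 3 and 4, 6 and 6, and 2 and 1 high and low rats.

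Outside the score, 154 of 17119 genes differed between the groups in limma with batch as a covariate, at a Benjamini-Hochberg adjusted p under 0.05 (0.900%). Of these, 115 were higher in the high group (0.672% of genes tested) and 39 were lower (0.228%), so 74.7% of the called genes were higher. With the same grouping, adding the column stretch as a covariate made this share 50.3% (151 higher and 149 lower), and array weights made it 48.9% (133 higher of 272). Among all genes tested 48.3% had a positive difference, and the median difference was -0.0028 on the log2 scale. The genes higher in the high group differed by 0.10 to 2.03 with a median of 0.35, and 10 of them by at least 1. The lower genes differed by -0.07 to -0.82 with a median of -0.22, and 0 of them by 1 or more. For the size of a typical gene, the median absolute difference over all genes tested was 0.048. Differences on this scale understate the change of genes with low counts.

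**Figure D2:**
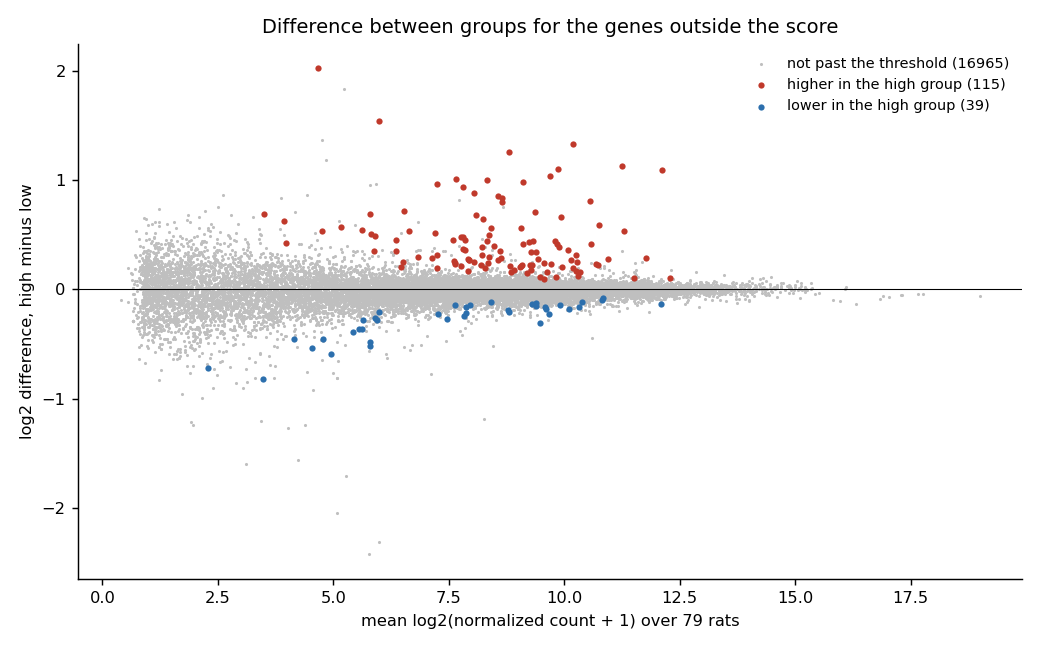
Log2 difference between the high and the low group (vertical axis) against the mean log2(normalized count + 1) over 79 rats (horizontal axis) for the 17119 genes outside the score. The 115 genes past the threshold and higher in the high group (red) reach 2.03, the 39 lower ones (blue) reach -0.82, and some genes with differences as wide were not past it (grey).

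A wide difference was not enough for a call. Of the 25 genes that differed by at least 1 in either direction, 10 passed the threshold, all of them higher in the high group, and of the 198 that differed by at least 0.5, 37 higher and 5 lower genes did. The genes called had a median mean level of 8.62 on the log2 scale when higher and 7.87 when lower, against 7.98 over all genes tested. Their median residual SD was 0.354 and 0.260, against 0.231. Calls were rarest among the genes with a mean under 3 (0.0431% of 2318) and commonest among those from 7 to 9 (1.34% of 4186) and from 9 to 11 (1.33% of 4275). Of 1906 genes at 11 or above, 0.367% were called. The groups overlapped in every called gene (0 of 154 without overlap), as they did in all 17119 genes tested.

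Differences of the called genes were shared by the batches. Of the 115 higher genes, a positive difference was found for 114, 114, 115 and 113 in batches 2, 3, 4 and 6, and of the 39 lower genes a negative one for 39, 38, 39 and 35. All 4 batches had the same sign for 111 higher and 34 lower genes, together 94.2% of the genes called, against 14.9% of the genes tested. These batches entered the fit that made the calls, so the share is a description. In the same order of batches, the median difference of the higher genes was 0.378, 0.401, 0.254 and 0.398, and that of the lower genes was -0.230, -0.225, -0.210 and -0.174. No gene passed the threshold in the interaction test of limma between group and batch (0 of 17119, 1578 at an unadjusted p under 0.05, smallest adjusted p = 0.1431). The same test with voom weights on recovered reads also called 0 (1675 unadjusted, smallest adjusted p = 0.0734). The interaction with sex had 556 unadjusted in limma and 640 with voom weights. That test has a single term and the one with batch has 3, so their counts are not like for like. Equal sizes among the batches were not shown.

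**Figure D3:**
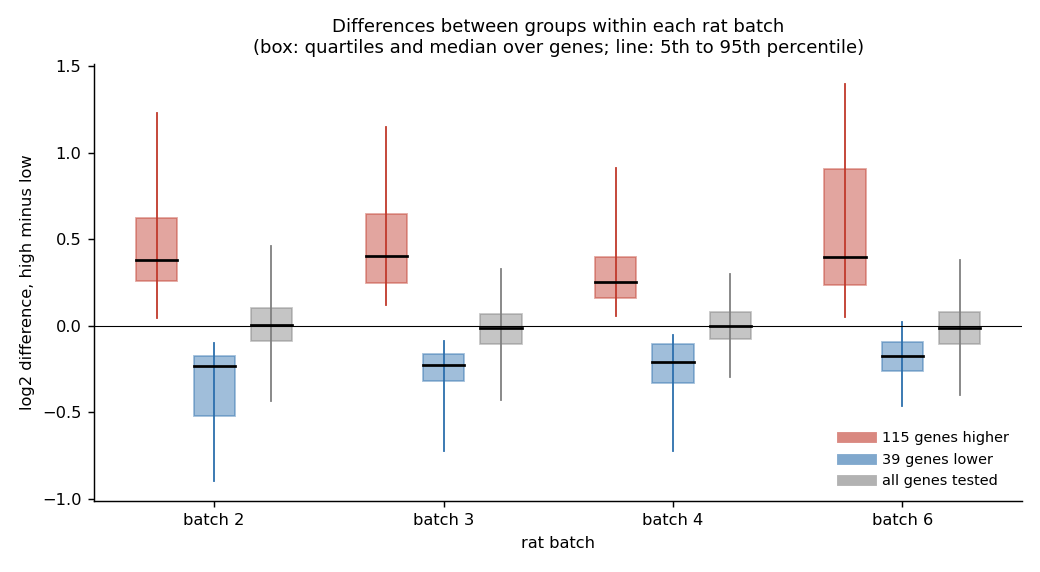
Log2 difference between the high and the low group within each rat batch (vertical axis) for the 115 higher genes (red), the 39 lower genes (blue) and all genes tested (grey), with the quartiles and median over genes as boxes and the range from the 5th to the 95th percentile as lines. The median of the higher genes lies between 0.254 and 0.401 in the 4 batches, that of the lower genes between -0.230 and -0.174, and that of all genes near 0.

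The called genes were chosen by a split of the score, so the sign of their correlation with it was largely fixed, and the values are given as a description. With batch means removed, the correlation with the score over 79 rats had a median of 0.611 among the 115 higher genes, from 0.264 to 0.920. It exceeded 0.7 in 31 of them, and 31 of the genes tested exceeded it in all. It exceeded 0.5 in 93 of the 104 genes tested that did so. Among the 39 lower genes it ran from -0.590 to -0.317 with a median of -0.443. It was under -0.5 in 11 of them, and in 15 of all genes tested.

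Since the shares of the sexes were unequal in the groups, the fit was repeated with sex as a further covariate. It called 103 genes (0.602%), 84 higher and 19 lower, and all 103 were among the 154. All 154 kept their sign, and the median ratio of the difference to that without the sex term was 0.943 for the higher and 0.934 for the lower genes. Both fits used the same libraries and grouping, so the kept signs are a description. Of the 154 genes, 3 (1.95%) were among the 20 that the sex model itself called, which are 0.117% of all genes. The interaction of group and sex was past the threshold for 0 genes in limma (556 at an unadjusted p under 0.05, smallest adjusted p = 0.7419) and for 0 with voom weights (640 unadjusted). Males alone gave 32 genes, 30 of them higher, and females alone 36 genes, 35 of them higher.

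ENSRNOG00000003745 had the widest difference among the genes called, a log2 value of 2.03 with an SE of 0.31 (adjusted p from limma 3.29e-06). Its normalized counts were 6, 54 and 491 (lowest, median, highest) in the high group and 0, 13.5 and 113 in the low group, where 1 rat was at 0. Of the 39 high rats 12 were above the highest low rat, and 3 of the 40 low rats reached the high median. The differences were 2.45, 1.58, 1.71 and 2.76 in batches 2, 3, 4 and 6. With the sex term the difference was 2.20 (adjusted p = 7.25e-07), and with 20 expression principal components as covariates it was 1.37 and the call was lost (adjusted p = 0.11231). The median number of recovered reads behind it was 18 per library.

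ENSRNOG00000014350 differed by 1.54 (SE 0.31, limma adjusted p = 0.001384). Its counts were 16, 90 and 698 in the high group and 6, 29 and 320 in the low group. Among the low rats 9 reached the high median, and 8 high rats exceeded every low rat. Batch 2 had the widest difference of the 4 batches, at 3.08, against 1.06, 0.99 and 1.66 for batches 3, 4 and 6, but the interaction with batch did not pass the threshold (limma adjusted p = 0.6135). Without batch 2 the difference was 1.18 and the call was lost (adjusted p = 0.12128), as it was when the groups were split within batch and sex (1.08, adjusted p = 0.13772).

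ENSRNOG00000047699 was lower in the high group by 0.82 on the log2 scale, with counts of 0, 9 and 22 in high rats, 2 of them at 0, and of 5, 14 and 40 in low rats. The fit gave a difference of -0.82 (SE 0.19, limma adjusted p = 0.010227). The median number of recovered reads was 10 per library, so that single reads weigh in its values. With the sex term the difference was -0.73 and no longer past the threshold (adjusted p = 0.060318), and the call was also lost without batch 4 (adjusted p = 0.1466). ENSRNOG00000009227 had counts of 9, 26 and 59 in high rats and of 15, 38.5 and 69 in low rats, a difference of -0.59 (SE 0.13, adjusted p = 0.002836). It stayed past the threshold with the sex term (-0.57, adjusted p = 0.012622), and without batch 3 it did not (adjusted p = 0.1187). With groups split within batch and sex it was -0.38 (adjusted p = 0.23845), and with 20 principal components -0.26 (adjusted p = 0.61982), both short of the threshold. With the same 2 settings ENSRNOG00000047699 was at -0.69 (adjusted p = 0.070422) and -0.47 (adjusted p = 0.58406). For both genes the groups overlapped over most of their range.

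**Figure D4:**
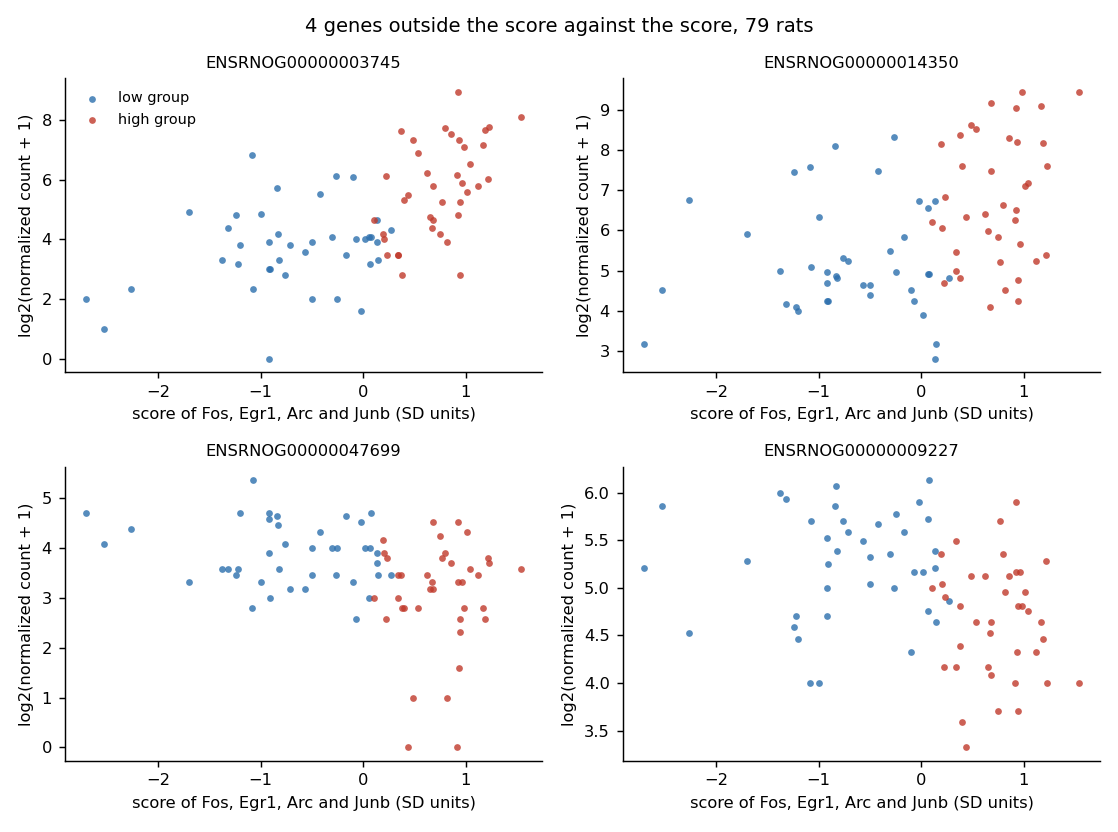
Log2(normalized count + 1) of the 2 higher and 2 lower genes named by identifier (vertical axes) against the score of Fos, Egr1, Arc and Junb (horizontal axes, SD units) in 79 rats, high group in red and low group in blue. ENSRNOG00000003745 is higher at higher scores, while the groups of ENSRNOG00000047699 and ENSRNOG00000009227 overlap over most of their range.

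The number of genes called depended on how the score entered the model. As a continuous covariate the score gave 556 genes, 285 higher and 271 lower, which held 144 of the 154. With the scores of each batch cut into 3 parts, the top against the bottom part gave 306, of which 197 were higher. A term for the column stretch gave 300 genes with all 154 among them, and array weights gave 272 with 140 of the 154. With 20 expression principal components as covariates, which held 63.8% of the variance of the score, 23 genes were called and 18 of these were among the 154. Leaving 1 gene out of the score gave 145 genes without Fos, 198 without Egr1, 191 without Arc and 211 without Junb. Without the 4 libraries that scored under -1.5, 110 genes were called, 108 of them among the 154. The excess of higher over lower genes in the grouped comparison (115 against 39) was thus nearly absent along the continuous score (285 against 271) and its rank (263 against 243). It was also absent with the column stretch term and with array weights. An excess was present with the sex term (84 against 19), with voom weights on recovered reads (118 against 49) and with sex and column stretch together (108 against 62). The reason for these differences was not tested.

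**Figure D5:**
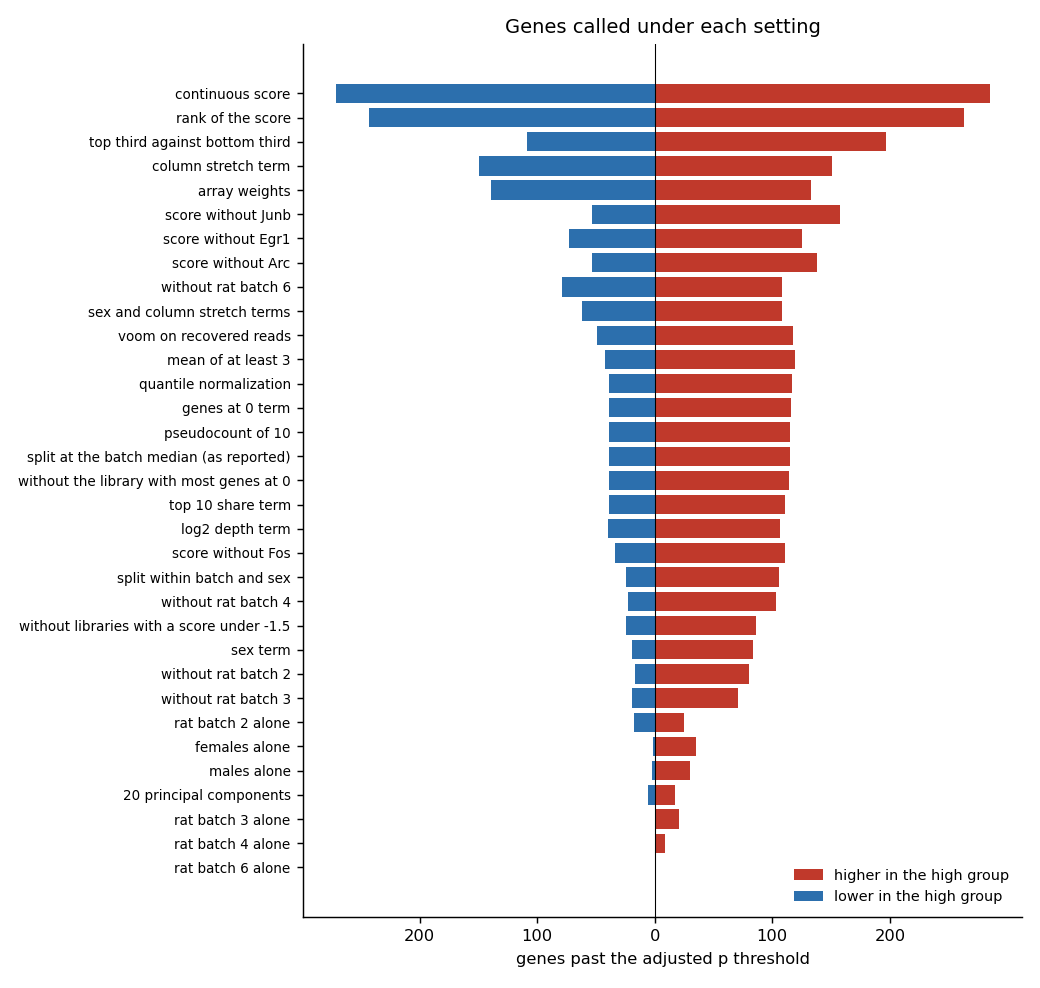
Number of genes past the adjusted p threshold (horizontal axis) that were higher (red, to the right) or lower (blue, to the left) in the high group or with a higher score, under each of 33 settings. The reported comparison gave 115 and 39, the continuous score 285 and 271, and batch 6 alone 0.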

How the data were processed

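Per the labels and the methods of the study, the authors used cutadapt for trimming and RSEM for alignment to the transcriptome of Ensembl (build Rnor_6.0), applied an upper quartile adjustment to estimated counts with DESeq2, and deposited log2 values of the adjusted count plus a pseudocount of 1. Tool versions are not given in the sources used here. Each value raised back gave a whole number (largest relative departure 3.98e-06). Rounded multiples of what 1 read was worth (a step of 0.733 to 3.51) made up 99.5% to 100% of the low values of a library. They gave a depth of 5.67 to 25.6 M reads, 18.0 ± 3.66 M (SD, n = 80). With a step under 1 every whole number is such a multiple, so the share cannot test the step there. In all 80 libraries the log likelihood of the chosen step exceeded that of distant steps by more than 10. Reads carried no molecular identifiers, and depth limits the precision of low counts.

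Genes were fitted on the deposited log2 values with limma 3.58.1 in R 4.3.3 (lmFit, eBayes with a mean trend), with rat batch as a covariate. P-values were Benjamini-Hochberg adjusted over the 17119 genes outside the score (threshold 0.05), and for the sex fit over all 17123 genes. The study states no such test. Depth, genes at 0, the share of the 10 highest genes and sex were tested by 100000 permutations of the grouping within batch. Each library came from 1 rat. The scripts were tested on simulated data. Scripts ran in Python 3.11.15 with scipy 1.17.1, pandas 2.3.3, matplotlib 3.10.9 and numpy 2.4.6.

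The members, gene lists and tests were chosen with earlier results of these data known. The lists (activity-regulated genes and cell type markers) hold gene symbols, and 0 identifiers could be paired with symbols, so no list was read. The genes named are the 4 of the score and, by the rule for unnamed genes, the 2 higher and 2 lower genes with the widest called difference, a mean of at least 3 and the same sign in 4 batches. Alternatives covered the score, covariates, pseudocount, filter on low values, scaling, weights, recovered reads, and batches and sexes left out.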

Additional observations from a re-analysis of the deposited data

Results flagged for a closer look

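The lowest rat of the low group of batch 6 (replicate 13) stood apart from the other 7 rats of that group in 3 of the 4 genes of the score. On the log2(normalized count + 1) scale Fos was 5.83, with the nearest rat at 8.88, Arc was 8.38, with the nearest at 10.84, and Junb was 8.68, with the nearest at 10.21. The gap exceeded Dixon's 95% critical value in each. In the high group of batch 6, replicate 9 was lowest for ENSRNOG00000009227, at 3.70, with the nearest rat at 4.64. Such gaps were looked for in 32 sets of 4 to 10 rats, 4 were found, and chance gives about 1 in 20 where sets are independent. These were not: the 3 genes of replicate 13 vary together, belong to 1 rat and were used to place it in the low group, so their gaps are a description of that rat.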

How the results depend on the processing

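Of 32 alternatives to the count of 154 genes, 18 stayed within 1.5 times of it and 14 did not. More genes were called with the score as a continuous covariate (556), with its rank (506), with the top against the bottom of 3 parts (306), with array weights (272) and with the column stretch as a covariate (300). Fewer were called without batch 2 (97), without batch 3 (90), with 20 principal components (23), in males alone (32), in females alone (36), and in batch 2 alone (43), 3 alone (21), 4 alone (9) and 6 alone (0 in limma, with 1446 at an unadjusted p under 0.05). The causes were not tested, and the subsets also held fewer rats. The rank, a split within batch and sex (130 genes), libraries scoring under -1.5 left out (110), the counts held by the 10 highest genes as a covariate (150) and sex and column stretch together (170) were chosen after seeing the data. All 154 genes kept their sign in each alternative that tested them, other than 20 principal components (153) and batches 2, 3 and 6 alone (153, 152 and 148). The reported fit chose these genes, and the alternatives reuse its libraries and most of its grouping. Their signs were therefore largely fixed in advance and are a description.

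The difference in the percentage of males (-26.5 points, unadjusted p = 0.02525) lost its unadjusted call with the score without Fos, Egr1 or Arc (-21.5 points each), without batch 3 (-15.6) and without batch 4 (-24.4), and its p ranged from 0.00672 to 0.2927. Depth and both interactions stayed short of the threshold in every alternative run for them. The genes named by identifier kept their direction in all 32 alternatives, and lost their call in 5 (ENSRNOG00000003745), 7 (ENSRNOG00000014350), 12 (ENSRNOG00000047699) and 11 (ENSRNOG00000009227) of them. The same sign in each of the 4 batches was a condition for naming these genes. Their direction in single batches was therefore fixed in advance, and the fits with a batch left out largely follow from it. No paired analysis was possible because each rat gave 1 library and the numbers given to replicates carry no pairing. Not run were 4 planned covariates from marker lists, since the identifiers could not be paired with gene names. The limits are that the groups were drawn from the same libraries, that cell types could not be checked, and that depth limits genes with few reads.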

Other observations

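The single rat of batch 5, which was in no group because a score cannot be standardized within a batch of 1, had normalized counts of 2687 for Fos, 14602 for Egr1, 23061 for Arc and 5543 for Junb.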
